A study of Mus musculus with 6 samples.

Results

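The transcripts of 10 genes of the NRF2 antioxidant pathway were examined in colon libraries from mice with and without the histone methyltransferase NSD2 in the intestinal epithelium. The genes were taken by name: Nfe2l2, Keap1, Nqo1, Hmox1, Gclc, Gclm, Srxn1, Txnrd1, Slc7a11 and Gpx2. All 10 were found among the 24517 genes listed in the count tables, and all 10 passed the filter on low counts that kept 16347 genes for testing. The rule that selects them uses no measured value, although the list was drawn up with earlier results of these data known. The 3 NSD2fl/fl control libraries came from mice with floxed Nsd2 alleles. In the mice of the 3 NSD2∆IE libraries, Nsd2 was deleted with Villin-Cre, a recombinase driven by a promoter active in intestinal epithelial cells, so Nsd2 in muscle, nerve, vessel and immune cells of the colon piece was not targeted. Both groups shared the C57BL/6J background and a high-fat, high-cholesterol diet (HFCD), given for 16 weeks according to the labels, while the study's text gives a longer time. The study's methods describe male littermates that started the diet as young adults. Total RNA came from colon tissue, and no library from mice on a normal diet was analysed here.

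NRF2, the protein made from Nfe2l2, is a transcription factor held at a low level by KEAP1, an adaptor that presents it for degradation. Oxidants and electrophiles modify KEAP1, NRF2 then escapes degradation, pairs with a small MAF protein and binds antioxidant response elements in its target genes. Its activity is therefore set largely at the protein level, and is usually read from target transcripts such as Nqo1, Gclm or Srxn1 rather than from Nfe2l2 itself. In the gut, this pathway supplies glutathione, reduces thioredoxin and peroxides, and detoxifies quinones and heme at a surface exposed to food, bacteria and bile.

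The libraries differed in more than the deletion. Nsd2 had 47.8, 59.1 and 68.9 CPM (counts over library size after TMM scaling) in NSD2fl/fl replicates 1 to 3 and 24.5, 23.1 and 27.5 CPM in NSD2∆IE replicates 1 to 3. Xist, the transcript that silences an X chromosome in female cells, had from 0 to 4 counts in NSD2fl/fl and from 21217 to 24234 counts in NSD2∆IE, whereas 4 Y-linked genes together had from 5058 to 6110 and from 0 to 1 counts. The sex pattern of the NSD2∆IE libraries therefore goes against the male animals of the methods, and effects of sex and of genotype cannot be told apart in any value given here. The libraries also fell into 2 sets by the sign of their first principal component (51% of the variance). The distal gut gene Hoxb13 had 365, 340 and 310 CPM in NSD2fl/fl replicates 1 and 3 and NSD2∆IE replicate 1, called the high-Hoxb13 set here, and 0.706, 4.97 and 26.2 CPM in NSD2fl/fl replicate 2 and NSD2∆IE replicates 2 and 3, the low-Hoxb13 set. The labels do not give the position of the pieces along the colon. The 10 epithelial markers summed to 13800 to 22500 CPM in NSD2fl/fl and 13100 to 15000 CPM in NSD2∆IE, and 8 smooth muscle markers to 1540 to 4350 and 5400 to 11600 CPM. Totals lay between 38041832 and 38604680 counts per library. A count of 0 allows up to 3 counts, which is at most 0.0848 CPM and covers counting error only. Nothing in the labels ties each replicate to its own animal, so p-values measure the spread between these libraries.

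The pathway spanned a wide range of transcript levels in the colon. Levels of different genes are compared as FPKM, the deposited value per length of transcript and per library total, averaged over the 6 libraries. Gpx2, the glutathione peroxidase of the gut epithelium, was the most abundant with a mean of 349 FPKM, and was the highest of the 10 in each library. Nfe2l2 followed with 91.2 FPKM, then Txnrd1 with 60.1, Srxn1 with 46.1, Gclm with 29.2, Gclc with 24, Keap1 with 15.4, Nqo1 with 9.82, Hmox1 with 5.17 and Slc7a11 with 0.383 FPKM. Gpx2, with 207 to 728 FPKM, did not overlap Nfe2l2, with 64.9 to 114 FPKM. Slc7a11 did not overlap Hmox1 at the lower end of the order, with 0.122 to 1.5 against 4.44 to 6.13 FPKM. Every other pair of neighbours in this order overlapped over the libraries, such as Keap1 with 13.2 to 18.2 and Nqo1 with 5.92 to 15.8 FPKM. The ratio of Nfe2l2 to Keap1 was 6.34, 5.88 and 4.57 in NSD2fl/fl and 5.84, 6.62 and 6.07 in NSD2∆IE, so the transcription factor exceeded its inhibitor in transcript level in all 6 libraries, by amounts that overlapped between the genotypes.

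To look for the letters of such response elements, the bases around the start sites of these genes were searched. RefSeq windows of assembly GRCm38.p6, from 250 bases before to 50 after a start, were at hand for 8 of the 10 genes (10 windows); Hmox1 and Gclc were not covered. The core of the antioxidant response element, TGACNNNGC on either strand, stood in 4 of the 10 windows (40%), beside 12.4% of all 32851 windows. The AP-1 core TGACTCA, which can form part of the response element, stood in 1 of the 10 windows and in 5.2% of all windows. The combined form TGACTCAGC was in 0 of the 10 and in 0.454% of all. The stretches upstream of a start that hold a match are printed 5′ to 3′ on the strand of the gene, with the matched bases in capitals.
Nfe2l2, antioxidant response element core: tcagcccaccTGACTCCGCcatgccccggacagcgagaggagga
Gclm, antioxidant response element core on the opposite strand: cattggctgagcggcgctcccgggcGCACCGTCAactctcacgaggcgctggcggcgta
Txnrd1, antioxidant response element core on the opposite strand: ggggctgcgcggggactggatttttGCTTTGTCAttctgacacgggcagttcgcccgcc
Srxn1, distal AP-1 core on the opposite strand: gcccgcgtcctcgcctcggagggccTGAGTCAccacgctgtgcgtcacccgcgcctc
Srxn1, proximal AP-1 core on the opposite strand: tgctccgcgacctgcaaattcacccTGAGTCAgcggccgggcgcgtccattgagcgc

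The Nfe2l2 stretch is chr2:75704870-75704913 on the minus strand, its match begins 240 bases before the start, and it overlaps an exon of E030042O20Rik, annotated on the plus strand. The Gclm stretch, chr3:122245398-122245456 on the plus strand with its match 134 bases before the start, lies in no annotated gene. The Txnrd1 stretch, chr10:82859089-82859147 on the plus strand, lies in the second of its windows, before the start of that window. It is within the Txnrd1 gene outside its exons, with the match 92 bases before that start. The Srxn1 stretches, chr2:152105397-152105453 and chr2:152105454-152105510 on the plus strand, lie in no annotated gene, with matches 102 and 45 bases before the start. Srxn1 also held a response element core beginning at base 29 after its start. In its proximal stretch, the capitals and the next bases read TGAGTCAGC, with G where the combined form TGACTCAGC has C. Response element forms with G at that base were not searched. The windows of Keap1, Slc7a11, Gpx2 and Nqo1 held no match, which says only that these letters are not in these windows. A match describes the letters, not binding, and the genotype differences of genes with and without a match are given one by one in what follows.

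The 10 genes did not share a direction between the genotypes. The fitted level was higher in NSD2∆IE for 4 and lower for 6, with a median log2 fold change of -0.074 beside -0.041 over all genes tested. Of all genes tested, 7145 were fitted higher and 9202 lower. With library totals in place of TMM factors, 7 of the 10 were fitted higher and 3 lower, and their median was 0.06. On that scale the median of all genes moved up by 0.127. The balance of directions among these small differences thus depended on the scaling. With the quasi-likelihood test of edgeR, 0 of the 10 had an adjusted p under 0.05, as did 0.0306% of all genes. With DESeq2, which gave no p for Slc7a11, the count was also 0, beside 2.91% of all genes. At the threshold used in the study (unadjusted p under 0.05 and a log2 fold change beyond 0.322 in either direction), 1 gene (10%) was higher in NSD2∆IE, beside 8.05% of all genes, and 0 were lower, beside 2.21%. The gene past this threshold was Nqo1. The values of the NSD2fl/fl and NSD2∆IE libraries overlapped for each of the 10, whereas they were separate for 18.7% of all genes tested.

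**Figure D1:**
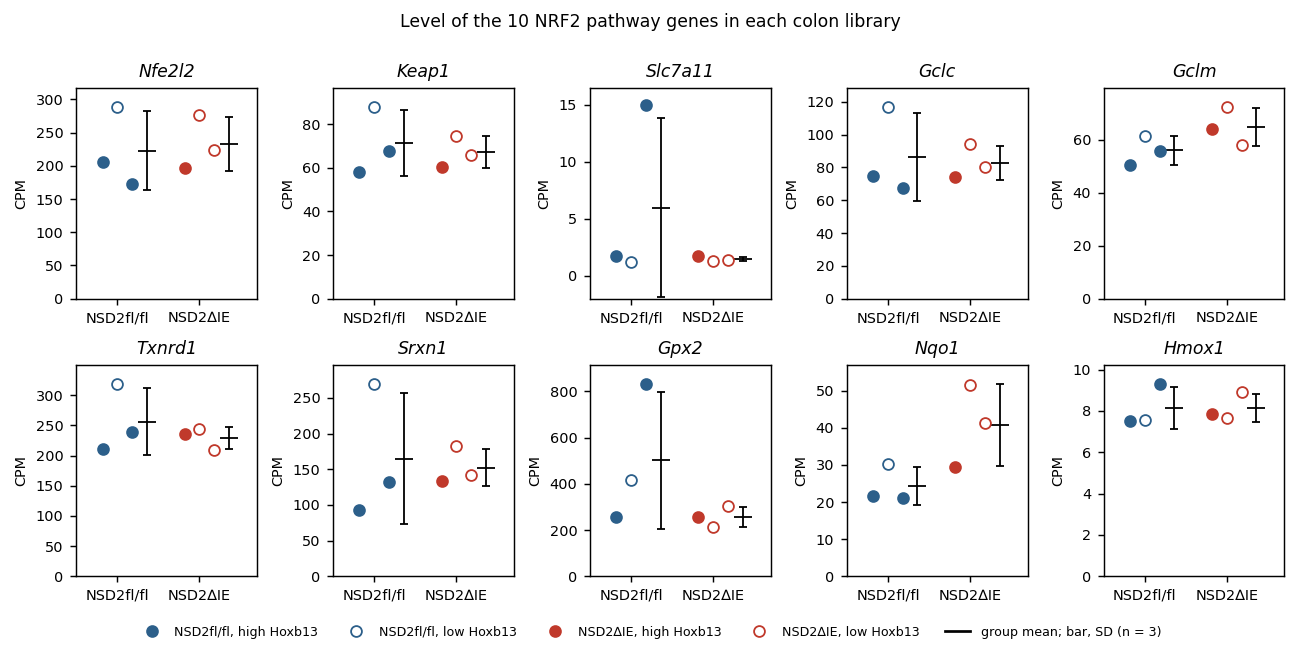
Level of each of the 10 genes in CPM (vertical axes, from 0 except where the SD bar of Slc7a11 reaches below it) in the 3 NSD2fl/fl (blue) and 3 NSD2∆IE (red) colon libraries, in replicate order; filled points are the high-Hoxb13 set, open points the low-Hoxb13 set, and black marks give the mean with SD. The genotypes overlap for each gene. Slc7a11 and Gpx2 stand highest in NSD2fl/fl replicate 3, with 15 and 831 CPM, and Nqo1 in NSD2∆IE replicates 2 and 3, with 51.5 and 41.2 CPM.

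The regulators did not differ between the genotypes beyond the spread of the libraries. Nfe2l2 had 206, 289 and 173 CPM in NSD2fl/fl replicates 1 to 3 and 197, 277 and 224 CPM in NSD2∆IE replicates 1 to 3. The highest value of each genotype belonged to its replicate 2, and the NSD2∆IE values lay inside the NSD2fl/fl range. The log2 fold change was 0.061 (SE 0.225, adjusted p = 0.934), and its sign turned in 3 of 16 alternative settings, which ranged from -0.084 to 0.29. Keap1 had 58.2, 88 and 67.9 CPM in NSD2fl/fl and 60.3, 74.8 and 66.1 CPM in NSD2∆IE. Here too NSD2fl/fl replicate 2 was the highest and the genotypes overlapped, and its log2 difference was -0.091 (SE 0.174, adjusted p = 0.866). Exons of Keap1 overlap the annotated gene Gm16754 on the opposite strand, and whether strand was used in counting is not given in the sources used here.

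The genes of glutathione synthesis and cystine uptake included the only member that was scarce in most libraries. Slc7a11 (chr3:50364936-50499087) makes the transport subunit of the cystine and glutamate exchanger, which brings in the cystine from which glutathione is built. It had 66, 44 and 535 counts in NSD2fl/fl replicates 1 to 3, or 1.71, 1.24 and 15 CPM. In NSD2∆IE it had 67, 52 and 59 counts, or 1.69, 1.31 and 1.42 CPM. A single library, NSD2fl/fl replicate 3, stood far above the other 5, which lay between 1.24 and 1.71 CPM. The fitted log2 fold change of -2.02 (SE 0.944, unadjusted p = 0.0708, adjusted p = 0.491) rested on that library, and without it the value was -0.0045. DESeq2 gave no p for this gene.

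Gclc and Gclm make the catalytic and the modifier subunit of glutamate-cysteine ligase, the rate-limiting enzyme of glutathione synthesis. Gclc had 74.8, 117 and 67.3 CPM in NSD2fl/fl and 73.9, 94.1 and 80.5 CPM in NSD2∆IE, with the NSD2∆IE values inside the NSD2fl/fl range. Its log2 fold change was -0.058 (SE 0.223, adjusted p = 0.936), and 7 of 16 alternatives turned the sign. Gclm had 50.6, 61.5 and 55.9 CPM in NSD2fl/fl and 64, 72.5 and 58 CPM in NSD2∆IE. Among its 6 values, 2 of the NSD2∆IE libraries were the highest, and the third fell below NSD2fl/fl replicate 2. The log2 fold change of Gclm was 0.21 (SE 0.128, unadjusted p = 0.144, adjusted p = 0.594) and stayed positive in 16 of 16 alternatives, from 0.12 to 0.34. With library totals alone or FPKM as the scale, Gclm passed the threshold of the study, scales that also moved the median of all genes upward. The FPKM ratio of Gclm to Gclc was 1.15, 0.892 and 1.41 in NSD2fl/fl and 1.47, 1.3 and 1.22 in NSD2∆IE, again with overlap. Exons of Gclm overlap the annotated Gm17494 on the opposite strand and Gm6061 on the same strand, so its reads may be shared with them.

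The 3 enzymes that reduce thiols and peroxides were fitted lower in NSD2∆IE with TMM factors, and none passed a threshold in the edgeR test. Txnrd1, the cytosolic thioredoxin reductase, had 211, 318 and 239 CPM in NSD2fl/fl and 235, 244 and 209 CPM in NSD2∆IE. Its highest value was again that of NSD2fl/fl replicate 2, and the other 5 libraries lay between 209 and 244 CPM. The log2 fold change of Txnrd1 was -0.16 (SE 0.178, adjusted p = 0.772). Srxn1 makes sulfiredoxin, which restores overoxidised peroxiredoxins. It had 93.5, 269 and 132 CPM in NSD2fl/fl and 133, 182 and 142 CPM in NSD2∆IE. NSD2fl/fl replicates 1 and 2 were its lowest and highest libraries, 2.88-fold apart, so the NSD2∆IE values lay within the spread of the controls. The log2 fold change of -0.12 (SE 0.379, adjusted p = 0.924) became 0.44 without NSD2fl/fl replicate 2.

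Gpx2, at chr12:76792335-76795554, reduces hydroperoxides in the gut epithelium. It had 256, 417 and 831 CPM in NSD2fl/fl and 255, 215 and 303 CPM in NSD2∆IE. NSD2fl/fl replicates 2 and 3 were its highest libraries, while NSD2fl/fl replicate 1 lay among the NSD2∆IE values. Means were 501 ± 296 CPM and 258 ± 43.9 CPM (SD, n = 3 each). The fitted log2 fold change was -0.96 (SE 0.413, unadjusted p = 0.0541, adjusted p = 0.457). It stayed negative in 16 of 16 alternatives, from -1.28 without NSD2fl/fl replicate 1 to -0.38 without NSD2fl/fl replicate 3, and had an unadjusted p under 0.05 in 4 of them. Gpx1, the widely expressed glutathione peroxidase, varied less, from 248 to 318 CPM, and the FPKM ratio of Gpx2 to Gpx1 was 0.972, 1.46 and 2.55 in NSD2fl/fl and 0.921, 0.851 and 1.07 in NSD2∆IE. All 10 epithelial markers were fitted lower in NSD2∆IE, 1 with an unadjusted p under 0.05 in edgeR, beside 11.1% of all genes. The sums of these markers were also highest in NSD2fl/fl replicates 2 and 3, with 22500 and 16100 CPM. The other 4 libraries had 13100 to 15000 CPM. The order of replicates 2 and 3 was the reverse of that for Gpx2. Markers of B and plasma cells summed to 2410 CPM in NSD2fl/fl replicate 3 and 1040 to 1650 CPM in the other 5 libraries. The part of these cells in the Gpx2 values was not tested. In such bulk tissue, fewer cells of a type and less RNA per cell cannot be told apart.

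Nqo1 had the smallest p of the 10 genes. The gene, at chr8:107388225-107403205, makes NAD(P)H quinone dehydrogenase, which reduces quinones by transfer of an electron pair and so keeps them from redox cycling. NSD2fl/fl replicates 1 to 3 had 21.7, 30.3 and 21.2 CPM, and NSD2∆IE replicates 1 to 3 had 29.4, 51.5 and 41.2 CPM. NSD2∆IE replicates 2 and 3 lay above the 3 control libraries, and NSD2∆IE replicate 1 fell just below NSD2fl/fl replicate 2. The means were 24.4 ± 5.15 CPM in NSD2fl/fl and 40.7 ± 11 CPM in NSD2∆IE (SD, n = 3 each). The fitted level was 1.67-fold higher in NSD2∆IE (log2 fold change 0.74, SE 0.24, unadjusted p = 0.0186). This did not hold after adjustment over all genes, where p was 0.355, and over 16 alternatives the adjusted p ranged from 0.124 to 0.99. The direction was the same in 16 of 16 alternatives, with log2 fold changes from 0.53 to 0.93, and the unadjusted p stayed under 0.05 in 13. It passed 0.05 when NSD2fl/fl replicate 1, NSD2fl/fl replicate 3 or NSD2∆IE replicate 2 was left out, with 0.0676 the highest. Nqo2, its close relative, had 32.4 to 36.7 CPM over the 6 libraries and a log2 fold change of -0.04 (SE 0.101).

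Summed markers of some cells outside the epithelium were separate between the genotypes, and those of others overlapped. In edgeR, 11.1% of all genes tested had an unadjusted p under 0.05 in either direction. All 8 smooth muscle markers were fitted higher in NSD2∆IE, 6 of them with an unadjusted p under 0.05. Their summed level was 4340, 1540 and 4350 CPM in NSD2fl/fl and 5400, 7290 and 11600 CPM in NSD2∆IE. The 8 markers of enteric neurons and glia were fitted higher as well, each with an unadjusted p under 0.05, and summed to 90.8, 47 and 71.5 CPM against 116, 151 and 151 CPM. Of 8 adipocyte markers, 7 were tested and fitted higher, 4 with an unadjusted p under 0.05, and the 8 summed to 25.6 to 34.1 CPM against 53.5 to 122 CPM. Within NSD2fl/fl, replicate 2 was the lowest library for smooth muscle markers and the highest for Nqo1. Within NSD2∆IE, replicate 1 was the lowest for these markers and also for Nqo1. The highest NSD2∆IE library was replicate 3 for these markers and replicate 2 for Nqo1. Whether these cells contributed to the level of Nqo1 was not tested. Sums overlapped between the genotypes for macrophages (562 to 835 and 675 to 822 CPM in NSD2fl/fl and NSD2∆IE), endothelium (155 to 190 and 164 to 193 CPM), fibroblasts (923 to 1170 and 965 to 1080 CPM) and T cells (12.8 to 18.8 and 15.2 to 20.5 CPM). Single markers in these lists could still differ in edgeR. Of 5 fibroblast markers, 2 were fitted higher, each with an unadjusted p under 0.05, and 3 lower, 0 with such a p. Of 9 macrophage markers, 6 were fitted higher, 1 with an unadjusted p under 0.05, and 3 lower, 0 with such a p. For endothelium and T cells, 0 markers had such a p. The 6 markers of B and plasma cells were each fitted lower in NSD2∆IE, with 0 at an unadjusted p under 0.05 in edgeR, and summed to 1650, 1260 and 2410 CPM in NSD2fl/fl and 1510, 1040 and 1140 CPM in NSD2∆IE.

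**Figure D2:**
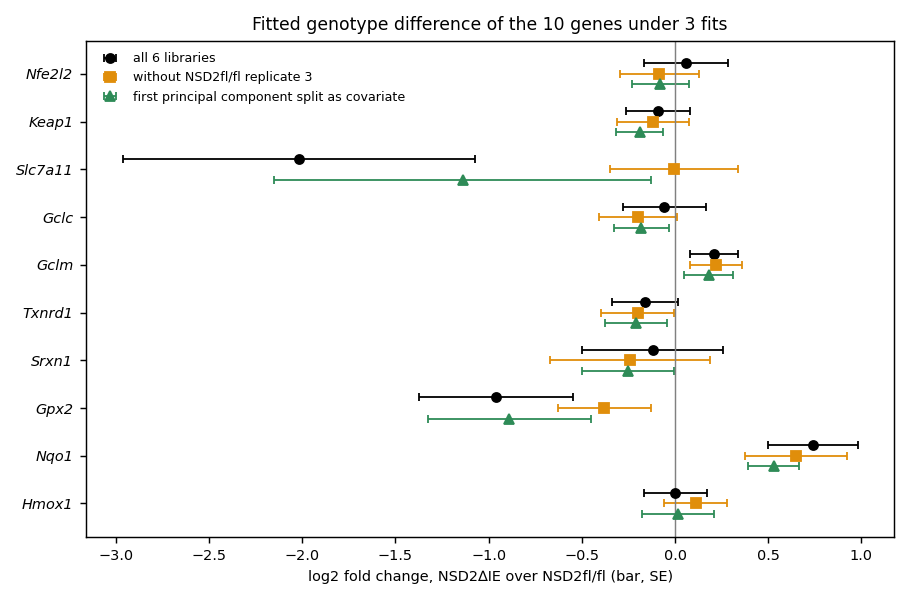
Fitted log2 fold change of NSD2∆IE over NSD2fl/fl (horizontal axis) with its SE for the 10 genes in edgeR, with all 6 libraries (black), without NSD2fl/fl replicate 3 (orange) and with the Hoxb13 sets, which are the split by principal component, as a covariate (green). Slc7a11 moves from -2.02 to -0.0045 and Gpx2 from -0.96 to -0.38 without NSD2fl/fl replicate 3, while Nqo1 stays positive in the 3 fits, at 0.53 with the covariate.

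Hmox1, which makes the inducible heme oxygenase that splits heme into biliverdin, iron and carbon monoxide, was the steadiest of the 10 genes across libraries. Its levels were 7.53, 7.57 and 9.29 CPM in NSD2fl/fl and 7.85, 7.65 and 8.94 CPM in NSD2∆IE. Replicate 3 was the highest in each genotype, and the highest and lowest of the 6 libraries differed 1.23-fold. The log2 fold change of Hmox1 was 0.0022 (SE 0.168, adjusted p = 0.997), so a difference larger than the spread of the libraries was not seen. Hmox2, the constitutive heme oxygenase, had 46.5 to 51.3 CPM, and exceeded Hmox1 in FPKM by 5-, 4.7- and 3.76-fold in NSD2fl/fl and 4.67-, 4.75- and 3.81-fold in NSD2∆IE.

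Relative to the transcript of the transcription factor, Nqo1 separated the genotypes. This ratio was chosen after the values were seen and is a description. Nqo1 over Nfe2l2 in FPKM was 0.0784, 0.0782 and 0.0911 in NSD2fl/fl and 0.111, 0.139 and 0.137 in NSD2∆IE. All 3 NSD2∆IE values exceeded all 3 NSD2fl/fl values, with means of 0.0826 ± 0.00741 and 0.129 ± 0.0152 (SD, n = 3 each). Ratios to Nfe2l2 were separate between genotypes for 8.85% of all other genes tested. NSD2fl/fl replicate 2 had 107 FPKM of Nfe2l2 and 8.36 FPKM of Nqo1, and NSD2∆IE replicate 1 had 81 and 9.03 FPKM. These libraries belong to different Hoxb13 sets, and whether the Nfe2l2 level bears on that of Nqo1 was not tested.

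**Figure D3:**
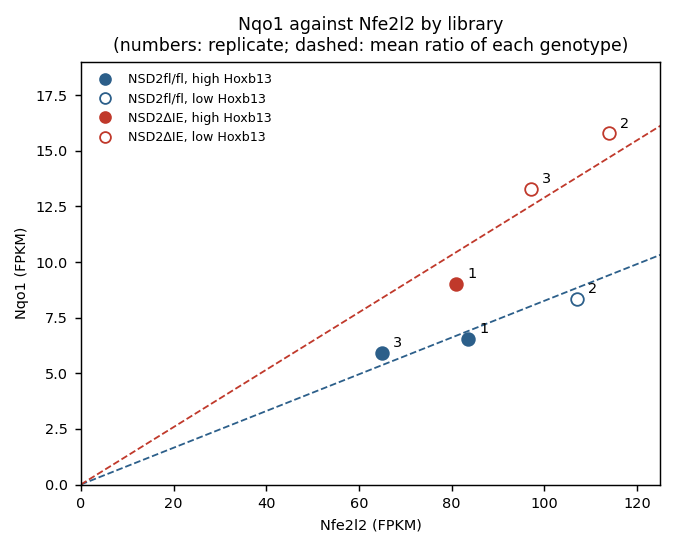
Nqo1 against Nfe2l2, both in FPKM, in the 6 colon libraries, with NSD2fl/fl in blue, NSD2∆IE in red, open points for the low-Hoxb13 set, and replicate numbers beside the points. Dashed lines give the mean ratio of each genotype, 0.0826 in NSD2fl/fl and 0.129 in NSD2∆IE, and the NSD2∆IE points lie above the NSD2fl/fl line.

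Some members also separated the libraries by their Hoxb13 set. The sets were drawn from the same libraries, so these values are a description with no test. Values of the sets were separate for 5 of the 10 genes (50%), beside 22.4% of all genes. Nfe2l2 had 173 to 206 CPM in the high-Hoxb13 set and 224 to 289 CPM in the low-Hoxb13 set. Gclc had 67.3 to 74.8 and 80.5 to 117 CPM, and Srxn1 had 93.5 to 133 and 142 to 269 CPM. Nqo1 had 21.2 to 29.4 and 30.3 to 51.5 CPM, a ratio of means of 1.7, which is close to its 1.67-fold difference between genotypes. These 4 genes were thus higher where Hoxb13 was low. Slc7a11 went the other way, with 1.69 to 15 CPM where Hoxb13 was high and 1.24 to 1.42 CPM where it was low. The low-Hoxb13 set held 2 of the 3 NSD2∆IE libraries and 1 of the 3 NSD2fl/fl libraries, so sets and genotypes were not balanced.

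Within the sets, Nqo1 was higher in NSD2∆IE in both. In the high-Hoxb13 set, the 29.4 CPM of NSD2∆IE replicate 1 exceeded the 21.7 and 21.2 CPM of NSD2fl/fl replicates 1 and 3, a difference of 0.46 in mean log2 CPM. In the low-Hoxb13 set, the 51.5 and 41.2 CPM of NSD2∆IE replicates 2 and 3 exceeded the 30.3 CPM of NSD2fl/fl replicate 2, a difference of 0.6. Separate values of this kind in both sets, higher in NSD2∆IE, were found for 18.3% of all genes. With the split as a covariate in the edgeR fit, the log2 fold change of Nqo1 was 0.53 (SE 0.136, unadjusted p = 0.00568, adjusted p = 0.314). Gpx2 was lower in NSD2∆IE in both sets, by 0.86 and 0.71 in mean log2 CPM, although in the high-Hoxb13 set NSD2∆IE replicate 1 and NSD2fl/fl replicate 1 differed only as 255 against 256 CPM. Such lower values in both sets were found for 15.8% of all genes. The other 8 members overlapped within a set or changed direction between the sets, as Srxn1 did with differences of 0.26 and -0.75.

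**Figure D4:**
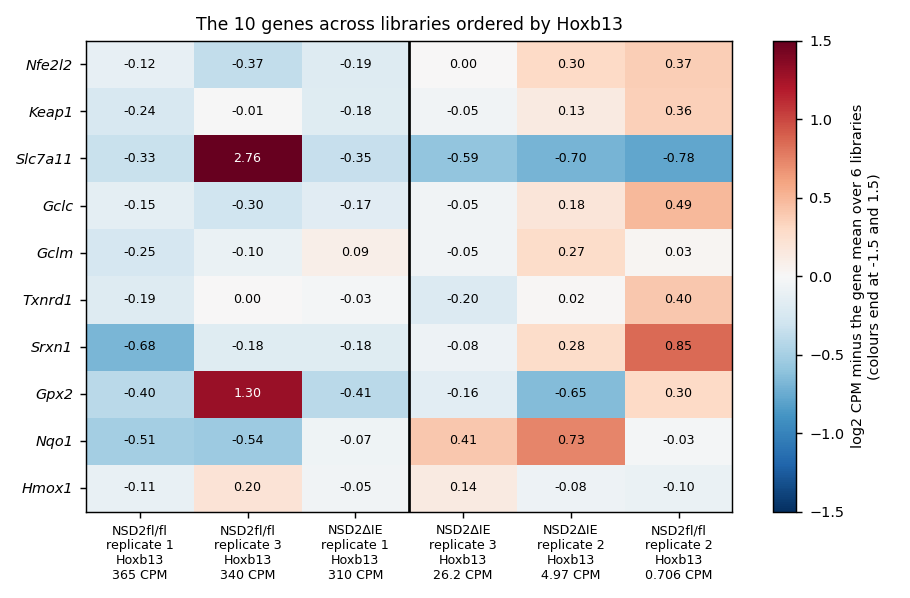
Log2 CPM of each of the 10 genes minus its mean over the 6 libraries (colour and printed value), with libraries ordered from high to low Hoxb13 and a line between the sets. Slc7a11 and Gpx2 reach 2.76 and 1.3 in NSD2fl/fl replicate 3, Nqo1 reaches 0.73 in NSD2∆IE replicate 2, and Hmox1 stays between -0.11 and 0.2.

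The wider antioxidant network was read from a list of 90 further genes in 11 roles, of which 89 were tested. A higher fitted level in NSD2∆IE was found for 48 and a lower one for 41, beside 7145 and 9202 of all genes tested. The median log2 fold change of the 89 was 0.011, beside -0.041 over all genes. With library totals the split was 68 and 21, on a scale that moved the median of all genes up by 0.127. Of the 89, 4 (4.49%) passed the threshold of the study as higher in NSD2∆IE, beside 8.05% of all genes, and 0 as lower, beside 2.21%. In edgeR, 0 had an adjusted p under 0.05 and 4 an unadjusted p under 0.05, beside 11.1% of all genes. DESeq2 gave 3 of the 89 an adjusted p under 0.05, a share near the 2.91% of all genes. Genotypes were separate in CPM for 6 of the 89 (6.74%), beside 18.7% of all genes.

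The 4 genes higher past the threshold were peroxidases and enzymes of conjugation and hydrolysis. Gpx8, a peroxidase of the endoplasmic reticulum, had 10.7, 9.41 and 9.74 CPM in NSD2fl/fl and 15.9, 17.4 and 19 CPM in NSD2∆IE. Its log2 fold change was 0.81 (SE 0.139, unadjusted p = 0.000723, adjusted p = 0.302, and 0.000362 in DESeq2). Gstt1, a glutathione transferase, had 25.8, 19.7 and 22.1 CPM in NSD2fl/fl and 34.4, 32.3 and 34.9 CPM in NSD2∆IE (log2 fold change 0.59, SE 0.131, unadjusted p = 0.00311). Ephx1, the microsomal epoxide hydrolase, had 40.6, 25.9 and 32.3 CPM in NSD2fl/fl and 56.6, 51.1 and 59.5 CPM in NSD2∆IE (log2 fold change 0.76, SE 0.175, unadjusted p = 0.00375). These 3 genes had separate values in the genotypes, and they are the 3 with an adjusted p under 0.05 in DESeq2, where Gstt1 had 0.0156 and Ephx1 0.0158. Gpx3, the secreted peroxidase, had 80.8, 105 and 67.2 CPM in NSD2fl/fl and 105, 129 and 130 CPM in NSD2∆IE. Its log2 fold change was 0.52 (SE 0.186, unadjusted p = 0.0276), and its values met at 105 CPM. The smooth muscle, nerve and adipocyte markers given above were higher in the same libraries, and their part in these values was not tested.

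**Figure D5:**
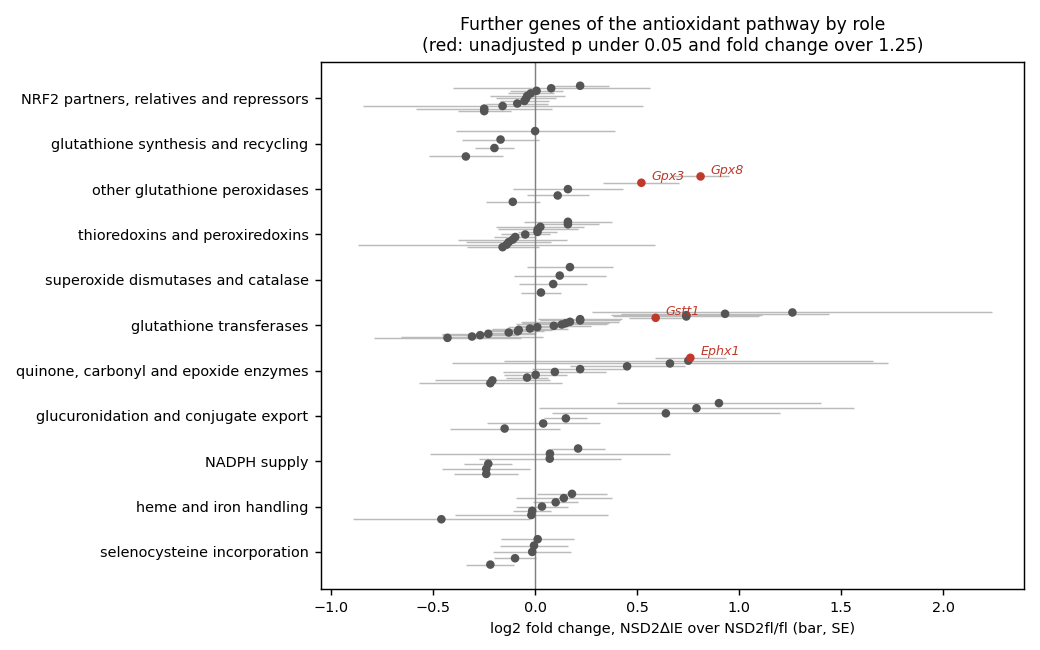
Fitted log2 fold change of NSD2∆IE over NSD2fl/fl with its SE (horizontal axis) for the 89 further pathway genes tested, grouped by role and sorted within each role. The 4 genes in red, Gpx8, Ephx1, Gstt1 and Gpx3, passed the threshold of the study, and no gene passed as lower.

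In the other roles no gene passed the threshold. Among the 11 partners, relatives and repressors of NRF2, 3 were fitted higher and 8 lower. Bach1, which competes with NRF2 at response elements, had 66.2, 56.4 and 66.6 CPM in NSD2fl/fl and 54.2, 58.4 and 46.2 CPM in NSD2∆IE (log2 fold change -0.25, SE 0.129, unadjusted p = 0.0928). Btrc, part of another ligase for NRF2, had a value of 0.22 (SE 0.143, unadjusted p = 0.17). The 4 genes of glutathione synthesis and recycling were all fitted lower, from -0.34 to -0.00067. Slc3a2, the partner subunit of Slc7a11, had 76, 70 and 76.3 CPM in NSD2fl/fl and 68.1, 61.7 and 63.4 CPM in NSD2∆IE, values that were separate although the log2 fold change was -0.2 (SE 0.0965, unadjusted p = 0.0763). Gsr, which reduces oxidised glutathione, had 83.9, 110 and 136 CPM in NSD2fl/fl and 93.8, 83.3 and 84.2 CPM in NSD2∆IE, so that its highest library was NSD2fl/fl replicate 3, as for Gpx2 and Slc7a11.

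The 11 thioredoxins and peroxiredoxins lay between -0.16 and 0.16 on the log2 scale, and their smallest p-values belonged to Txnrd2, the mitochondrial thioredoxin reductase, at 0.16 (SE 0.15), and to Txn2, the mitochondrial thioredoxin, at -0.098 (SE 0.104). The 4 superoxide dismutases and catalase lay between 0.028 and 0.17, where Sod3, the extracellular dismutase, had 17.3 to 25.7 CPM in NSD2fl/fl and 21.4 to 23.2 CPM in NSD2∆IE. Catalase (Cat), which breaks down hydrogen peroxide in peroxisomes, had 61.9 to 96.8 CPM in NSD2fl/fl and 80.8 to 113 CPM in NSD2∆IE. Of the 20 glutathione transferases, 12 were fitted higher and 8 lower, and values of the Hoxb13 sets were separate for 11 of them (55%, beside 22.4% of all genes). Gsta3 had 13.2, 7.97 and 22.2 CPM in NSD2fl/fl and 27.5, 19.9 and 24.8 CPM in NSD2∆IE, and differed by 0.74 on the log2 scale (SE 0.357, unadjusted p = 0.079). Members of the Gsta and Gstm families are similar in sequence, so reads may be divided among them uncertainly. Of 10 quinone, carbonyl and epoxide enzymes, 7 were fitted higher, and Ephx1 alone passed the threshold. The aldehyde oxidase Aox1 had the next smallest p, with 1.67 to 2.93 CPM in NSD2fl/fl and 2.93 to 3.71 CPM in NSD2∆IE (log2 fold change 0.45, SE 0.282).

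The 6 tested genes of glucuronidation and conjugate export lay between -0.15 and 0.9. Abcc2, an exporter of conjugates, had 2.52, 0.678 and 1.12 CPM in NSD2fl/fl and 2.27, 3.43 and 2.41 CPM in NSD2∆IE (log2 fold change 0.9, SE 0.499, unadjusted p = 0.114). Abcc1, another exporter, had 43.7 to 44.8 and 44.4 to 53.7 CPM. NADPH supply was split, with 3 genes fitted higher and 3 lower. G6pdx, the entry enzyme of the pentose phosphate pathway and X-linked, had 67, 69 and 80.4 CPM in NSD2fl/fl and 59.4, 67 and 57.9 CPM in NSD2∆IE, and Idh1 had 177, 225 and 186 CPM and 223, 235 and 223 CPM. Neither passed, with log2 fold changes of -0.23 (SE 0.117) and 0.21 (SE 0.131). For heme and iron handling, the iron exporter Slc40a1 had the lowest value, -0.46 (SE 0.432), with 281, 282 and 121 CPM in NSD2fl/fl and 166, 238 and 91.9 CPM in NSD2∆IE. Replicate 3 was its lowest library in each genotype. Blvra, which reduces biliverdin, had 14.1 to 19.5 CPM in NSD2fl/fl and 17.2 to 21.7 CPM in NSD2∆IE. The 5 genes of selenocysteine incorporation, which thioredoxin reductases and some but not all GPX proteins need, lay between -0.22 and 0.012. Secisbp2 was lowest, with 24.9 to 26.4 CPM in NSD2fl/fl and 20.2 to 24.5 CPM in NSD2∆IE. Sepsecs had 47.2 to 54 and 44.2 to 49.3 CPM.

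Genes with profiles most like those of 3 members were sought among 13110 genes over the 6 libraries, by the root mean square distance between centred log2 CPM values. Closest to Nfe2l2 were Hsd17b4 (distance 0.0476), Zfyve9 (0.0585) and Rtn4 (0.0591). Hsd17b4, a peroxisomal enzyme of fatty acid oxidation, had 82.6, 115 and 73.6 CPM in NSD2fl/fl and 85.7, 118 and 94.7 CPM in NSD2∆IE. Closest to Gpx2 were Creld2 (0.111), Ly6a (0.172) and Slfn4 (0.172). Creld2, a gene of the endoplasmic reticulum stress response, had 60.7, 94.1 and 165 CPM in NSD2fl/fl and 62.1, 48.5 and 60.9 CPM in NSD2∆IE. Closest to Slc7a11, at larger distances, were Gsdmc2 (0.422), Clps (0.506) and Spink4 (0.61). Gsdmc2, a gasdermin of the gut epithelium, had 531, 263 and 1880 CPM in NSD2fl/fl and 420, 206 and 254 CPM in NSD2∆IE, and Spink4, a goblet cell gene, had 1250 CPM in NSD2fl/fl replicate 3 and 259 to 423 CPM in the other 5 libraries. The genes closest to Gpx2 and Slc7a11 shared the high value of NSD2fl/fl replicate 3. They were picked by these same profiles, so the shared value follows from the choice and is a description only.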

How the data were processed

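RNA sequencing of mouse colon gave 6 libraries, 3 per genotype. The authors deposited raw read counts per gene and FPKM per gene (reads per length and library total). The submitters' processing notes name fastp, HISAT2, HTSeq, R 3.2.0 and build mm10; the annotation and the use of strand are not given in the sources used here. Deposited counts and FPKM implied 1 length per gene, within 0.0638 bases over 17863 genes. No 2 libraries agreed within sampling noise (smallest chi-square per degree of freedom 35.46). Groups came from the labels. Counts were tested with the quasi-likelihood test of edgeR 4.0.16 in R 4.3.3 (filterByExpr, TMM, two-sided, Benjamini-Hochberg over 16347 genes, no covariate). SE is the log2 fold change over the root of F. Alternatives used other factors, DESeq2 1.42.0, limma 3.58.1 (voom, or log2(FPKM + 1) and log2(FPKM + 0.1)), no filter, each library left out, a replicate block, the split along the first principal component, and a fold threshold of 1.5. Log2 CPM used a prior count of 2. Members and lists were chosen with earlier results of these data known. Named were the 10 members, the 2 genes of smallest p per role, and the 3 nearest profiles (mean log2 CPM at least 1) of Nfe2l2 and of the 2 members with the largest change; Nqo2, Hmox2 and Gpx1 were added as relatives of members. On simulated data for this comparison, with 16071 genes tested, 70 of 100 genes with a 4-fold change and 15 of 99 with a 2-fold change were found, with 7 false calls. Sequences and positions are from RefSeq (GRCm38.p6), overlaps from GENCODE M21.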

Additional observations from a re-analysis of the deposited data

How the results depend on the processing

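No setting gave any of the 10 members an adjusted p under 0.05. The median of their log2 fold changes, -0.074, did not keep its sign: it was 0.06 with library totals alone, 0.033 with voom, 0.11 and 0.12 on the FPKM scales, and between -0.19 and 0.15 with a library left out, shifts smaller than the spread of the mean over the members between libraries of a genotype (SD 0.229). The count of members higher past the threshold of the study went from 1 to 2 with library totals alone, log2(FPKM + 1) and log2(FPKM + 0.1), each adding Gclm, and lay between 0 and 1 with a library left out. Lower members went from 0 to 1 with DESeq2 (Gpx2), to 2 without the filter (Gpx2 and Slc7a11), and to between 0 and 2 with a library left out. Of the further pathway genes, the higher count of 4 became 7 on both FPKM scales, 8 with the split as a covariate and between 3 and 11 with a library left out, highest without NSD2fl/fl replicate 2. Over all genes the same count moved as well, from 1316 to 1385 and 1875 on the FPKM scales, 1468 with the covariate and between 675 and 1720 with a library left out, and the lower count from 361 to between 108 and 747 over the settings. Among the pathway genes the lower count of 0 lay between 0 and 4, and 3 had an adjusted p under 0.05 in DESeq2. The replicate numbers were not taken as pairs, since the study's methods name no block. Deviations of same-numbered libraries correlated at 0.501, 0.643 and -0.166, and 2 NSD2∆IE libraries correlated best with the control of their own number. Same-numbered libraries 1 and 2 also shared a Hoxb13 set, so these correlations cannot decide on pairing. With the replicate block in edgeR, Nqo1 had a log2 fold change of 0.72 (unadjusted p = 0.00227). There, 1 member (Gpx2) and 1 further gene (Slc40a1) were lower, and Srxn1 was at 0.015. Small differences changed sign. Gclc was at 0.014 under upper-quartile scaling, 0.075 under library totals, 0.043 with voom, 0.099 and 0.1 on the FPKM scales, and between -0.2 and 0.22 with a library left out. Keap1 was at 0.044, 0.049 and 0.052 with library totals and the FPKM scales, and between -0.22 and 0.089. Srxn1 was at 0.029 with library totals, 0.077 with voom, 0.14 on both FPKM scales, and between -0.4 and 0.44. Hmox1 was at -0.03 without the filter, and between -0.07 and 0.11. Nfe2l2 was at -0.078 with the covariate, and between -0.084 and 0.29, and Txnrd1 between -0.28 and 0.029. The cause of these shifts was not tested, except that library totals alone and the FPKM scales moved the median of all genes by 0.127, 0.102 and 0.135. The biological coefficient of variation was 0.311, and in the simulation most genes changed 2-fold were not recovered. Counts there were simulated without Hoxb13 sets, a sex difference or a shift in cell markers, unlike the real libraries. A change of depth was not tested.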
